A study of Danio rerio with 24 samples.

Results

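Latrophilins (Adgrl proteins) and teneurins (Tenm proteins) are 2 families of neuronal surface proteins that bind each other across the synaptic cleft. Latrophilins are adhesion G protein-coupled receptors and, like the neurexins, are receptors of alpha-latrotoxin, the main toxin of black widow venom. In the mammalian brain they sit largely on the postsynaptic side, where they also bind the FLRT proteins. Teneurins are large single-pass proteins with EGF-like and YD repeats. They bind latrophilins and one another, and in the zebrafish visual system Tenm3 is known for its part in the wiring of retinal circuits.

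The rows were chosen by symbol from the table of gene counts. For 7 zebrafish genes (adgrl1a, adgrl2a, adgrl3.1, tenm1, tenm2, tenm3 and tenm4), letter case was ignored, and the paralog letter was dropped where the full symbol had no match. This gave 10 of the 37241 rows, 4 of latrophilins and 6 of teneurins, and all 10 were among the 23641 rows with enough reads to be tested. Symbols in capitals are names carried over from another species. ADGRL3, TENM2 and the tenm3 symbol each stand on 2 rows, which are told apart here by the last 5 digits of the Ensembl identifier: ADGRL3-61121 and ADGRL3-90624, TENM2-11171 and TENM2-37122, tenm3-05479 and TENM3-87599. The single rows are ADGRL1 (ENSDARG00000089292), ADGRL2 (ENSDARG00000069356), tenm1 (ENSDARG00000003403) and TENM4 (ENSDARG00000105088). No source says whether the paired rows are separate genes or pieces of 1 gene, and how reads common to near-identical copies were split is uncertain.

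RNA of whole brains of adult Danio rerio, dissected after removal of the eyes, was sequenced from wt fish and 7 homozygous double-mutant lines, all in the AB background, with 3 libraries per genotype and 24 in all. The mutants were made with CRISPR/Cas9 and carry the deletion in both paralogs of a neurexin gene. In nrxn1full, nrxn2full and nrxn3full the whole locus was deleted, and in nrxn1tmr, nrxn2tmr and nrxn3tmr only the region that encodes the transmembrane part, in the last exon. In nrxn1part the stretch from the alpha promoter to exon 7 was removed, which spares the beta region. The labels call the replicates biologically independent. The number of brains in a library is not stated, and p-values measure the spread between these libraries.

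Total counts ran from 28512102 to 39342435 per library. The targeted neurexins matched the labels: nrxn2a was at 8.65% and nrxn2b at 30.3% of the wt mean in nrxn2full, and nrxn3a at 11.3% and nrxn3b at 0.0427% in nrxn3full, while nrxn2tmr and nrxn3tmr kept 94.9% to 113.1% of the wt level of their targets. The tissue label held for neurons, whose 12 marker rows summed to 355892 to 409667 normalised counts in every library. Retina markers (9 rows) were also present and varied widely, from 441.1 to 64696 normalised counts, with wt at 15239 to 64696. Skeletal muscle markers reached 2461 in wt replicate 1 and stayed at or under 158.6 in all other libraries.

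Counts were divided by size factors to give normalised counts, and differences were assessed by the quasi-likelihood test of edgeR, with p-values adjusted by the Benjamini-Hochberg method over all tested rows. A row was called at an adjusted p under 0.05. All 7 line comparisons share the same 3 wt libraries. Because these are bulk samples, a lower number of cells of a type and less RNA per cell cannot be told apart. A transcript length was not used, so levels are compared between genotypes of 1 row and not between rows.

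Changes against wt were called in 2 of the 10 rows, both of teneurins. Of 70 pairs of a row and a line, 4 were called, against 7.75% of all pairs of a tested row and a line. TENM3-87599 rose in nrxn1full, nrxn2tmr and nrxn3tmr, and TENM2-37122 fell in nrxn2tmr. By line, 1 of 10 rows was called in nrxn1full (background 7.44% of tested rows), 2 in nrxn2tmr (8.48%) and 1 in nrxn3tmr (7.32%). In nrxn1part (8.69%) and nrxn1tmr (4.54%) the count was 0 with edgeR and with DESeq2, and no row had an unadjusted p under 0.05. It was also 0 in nrxn2full (9.65%) and nrxn3full (8.13%), where 2 rows and 1 row had an unadjusted p under 0.05 and DESeq2 called 1 row each. Libraries of line and wt did not overlap for 1 row in nrxn1full (26.4% of all tested rows), 2 in nrxn2tmr (28.3%), 2 in nrxn3full (27.6%) and 1 in nrxn3tmr (25.2%), and for 0 in nrxn1part (24.9%), nrxn1tmr (22.1%) and nrxn2full (24.4%).

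**Figure D1:**
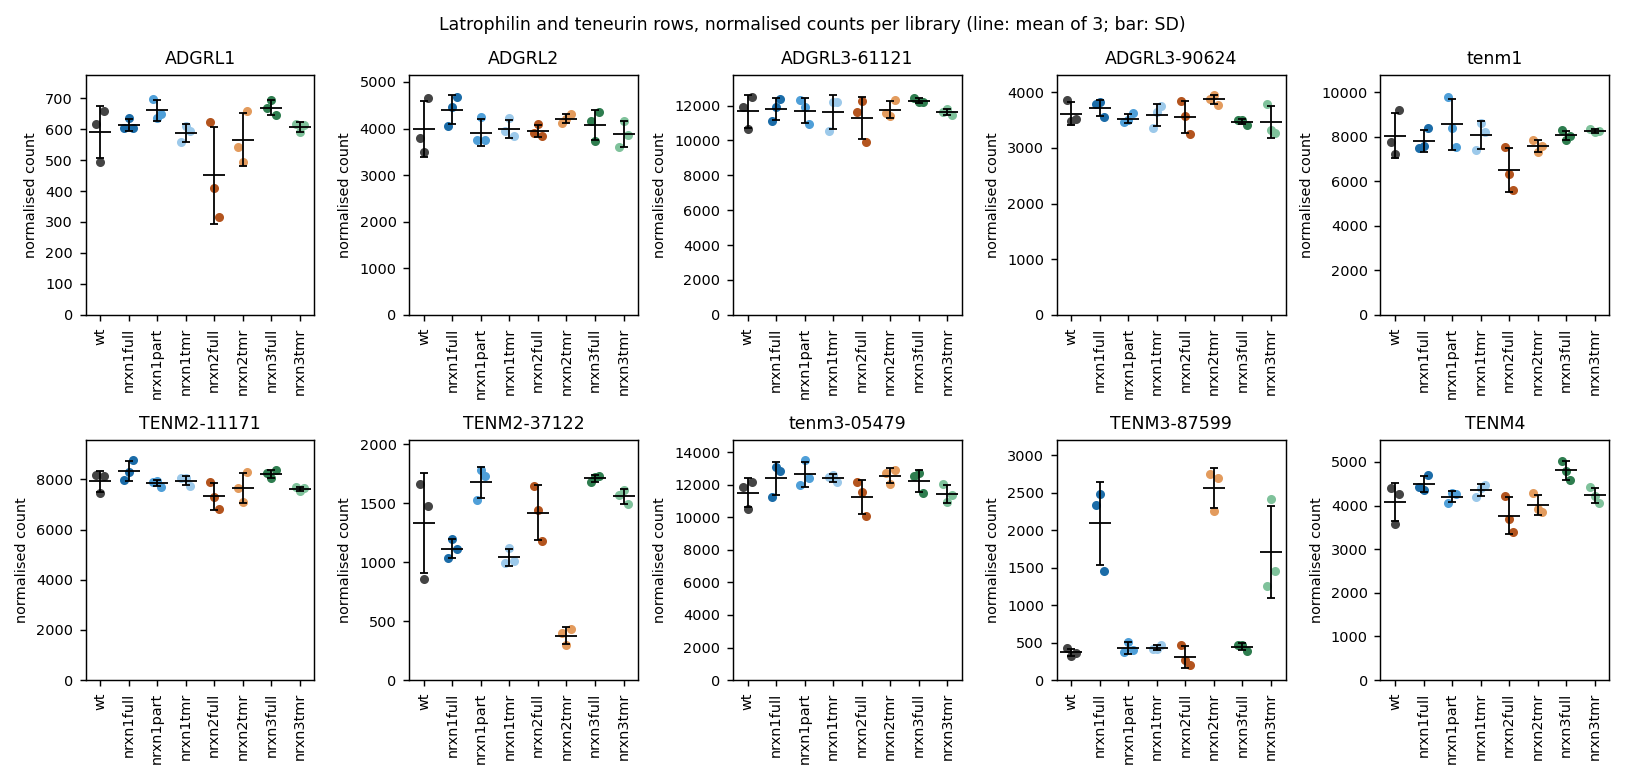
Normalised counts (y axis, from 0) of the 10 latrophilin and teneurin rows in 24 libraries, by genotype (x axis); points are libraries, the dash is the mean of 3 and the bar its SD. TENM3-87599 lies between 1259 and 2743 in nrxn1full, nrxn2tmr and nrxn3tmr and at or under 514 elsewhere, and TENM2-37122 lies between 300.4 and 433.7 in nrxn2tmr and at or above 854.5 elsewhere.

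The latrophilin ADGRL1, a receptor purified by its affinity for alpha-latrotoxin, had wt libraries at 617, 495 and 659 normalised counts. In nrxn2full its libraries were at 624, 411 and 317, so the first lay within the wt range and the others below it. The mean was 451 ± 157 against 590 ± 85.0 (SD, n = 3 each), with a log2 fold change of -0.39 (95% interval -0.74 to -0.04, adjusted p = 0.15). In the other 6 lines its means ran from 565 to 669. Of the alternative fits, only the fit without nrxn2full replicate 1 called the difference, at -0.70 (adjusted p = 0.0014). In that fit 19.3% of all tested rows were called. That replicate stood apart from its mates in retina markers, at 18127 normalised counts against 441.1 and 655.3; their part in the result was not tested.

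ADGRL2 varied little, from 3493 in the lowest library to 4670 in the highest. Its genotype means ran from 3877 in nrxn3tmr to 4402 in nrxn1full. Neighbours in this order overlapped at every step.

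ADGRL3, the latrophilin whose human gene is linked to attention deficit hyperactivity disorder, gave 2 steady rows. ADGRL3-61121 had means from 11270 in nrxn2full to 12279 in nrxn3full, and ADGRL3-90624 from 3467 in nrxn3tmr to 3872 in nrxn2tmr. The second row took 22.1% to 24.8% of the reads of both, as a mean per genotype, so their ratio was nearly level as well. With their reads summed, a fit chosen after the data were seen, the 7 log2 fold changes lay between -0.04 and 0.04.

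Over the 4 latrophilin rows, 14 of 28 log2 fold changes against wt were positive, from -0.39 to 0.18. The 8 rows with no call in any of the 10 pairwise comparisons, latrophilins and teneurins together, gave 56 intervals against wt. Of these, 55 lay within 1.5-fold either way. The lowest bound was -0.74 and the highest 0.53 on the log2 scale. Taking rows without a call in itself leaves out large differences. TENM4 is among these rows, though the test of any difference among genotypes, given below, called it.

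tenm1, whose mammalian counterpart lies on the X chromosome, had wt libraries at 7744, 7216 and 9203 normalised counts. Those of nrxn2full were at 7558, 6341 and 5624, of which the first lay inside the wt range. The log2 fold change was -0.31 (95% interval -0.53 to -0.09, adjusted p = 0.071), and it was called with DESeq2 (adjusted p = 0.034). Without nrxn2full replicate 1 it was -0.43 (adjusted p = 0.0087), where 19.3% of all tested rows were called. Without wt replicate 3 it was -0.38 (adjusted p = 0.043). The remaining alternative fits did not call tenm1 in nrxn2full. A myelin marker moved in the same line: mbpb was at 8522 ± 2107 against 3658 ± 1401 in wt (log2 fold change 1.22, adjusted p = 0.018). The 6 oligodendrocyte rows summed to 345263 to 416016 in nrxn2full and 223732 to 456243 in wt, so the groups overlapped, and the part of these cells in the result was not tested. The 9 rows of radial glia and astroglia did not overlap, with sums of 240059 to 272383 in nrxn2full and 203620 to 210350 in wt. Sums wholly above wt were also found in nrxn1full (218730 to 234451), nrxn1tmr (218640 to 233719) and nrxn2tmr (227142 to 233489). In nrxn2full the median log2 fold change of the 9 rows was 0.32. Of the 9, 1 was called, S100B, a calcium-binding protein of glia, which was higher (0.57, adjusted p = 0.032). The part of these cells in the lower tenm1 and ADGRL1 values was not tested either.

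TENM4, a teneurin that in mice is needed for the onset of myelination, had wt libraries at 4398, 3589 and 4257. In nrxn3full all 3 libraries were higher, at 5017, 4804 and 4596, with a log2 fold change of 0.24 (95% interval 0.07 to 0.40, adjusted p = 0.068). DESeq2 called this difference (adjusted p = 0.03), as did the fit without wt replicate 1 (0.29, adjusted p = 0.046). So did the fit with the replicate number as a block (0.29, adjusted p = 0.039), and the remaining alternative fits did not. In nrxn2full the mean was the lowest of the 8, at 3773 ± 417.

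A test for any difference among the 8 genotypes called 3 of the 10 rows, against 29.4% of all tested rows. These were TENM3-87599 (adjusted p = 1.2e-07), TENM2-37122 (adjusted p = 4.7e-06) and TENM4 (adjusted p = 0.038). The TENM4 call held in 14 of 29 alternative fits, and its adjusted p ranged up to 0.10.

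TENM2-37122 was the row that fell. Its libraries were at 1660, 855 and 1478 normalised counts in wt and at 399, 300 and 434 in nrxn2tmr, so each nrxn2tmr library lay below the lowest wt library. The nrxn2tmr mean was 28.4% of that of wt, 378 ± 69.2 against 1331 ± 423, with a log2 fold change of -1.82 (SE 0.18, 95% interval -2.20 to -1.43, adjusted p = 3.7e-06).

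In nrxn2full, the deletion of the same neurexins' whole loci, TENM2-37122 was at 1643, 1439 and 1178, which overlapped with wt. Set directly against nrxn2tmr, nrxn2full was 3.76-fold higher (log2 1.91, SE 0.18, adjusted p = 1.9e-06). Of the 10 rows, 2 were called between the nrxn2 lines, against 11.9% of tested rows.

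The remaining lines placed TENM2-37122 between 992 and 1779. The lines nrxn1full (1037, 1195 and 1107) and nrxn1tmr (992, 1118 and 1006) lay low in the wt range, and nrxn3full (1677, 1718 and 1730) just above it. One wt library, replicate 3 at 855, sets much of the wt spread. Without it nrxn1full (-0.50, adjusted p = 0.038) and nrxn1tmr (-0.60, adjusted p = 0.02) were also called lower than wt.

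The other row of the same symbol, TENM2-11171, was steady, with means from 7335 in nrxn2full to 8350 in nrxn1full. TENM2-37122 supplied 14.2% ± 3.44 of the reads of both rows in wt and 4.67% ± 0.52 in nrxn2tmr. With their reads summed, the fit chosen after the data were seen gave a log2 fold change of -0.20 in nrxn2tmr, which was not called (adjusted p = 0.076).

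**Figure D2:**
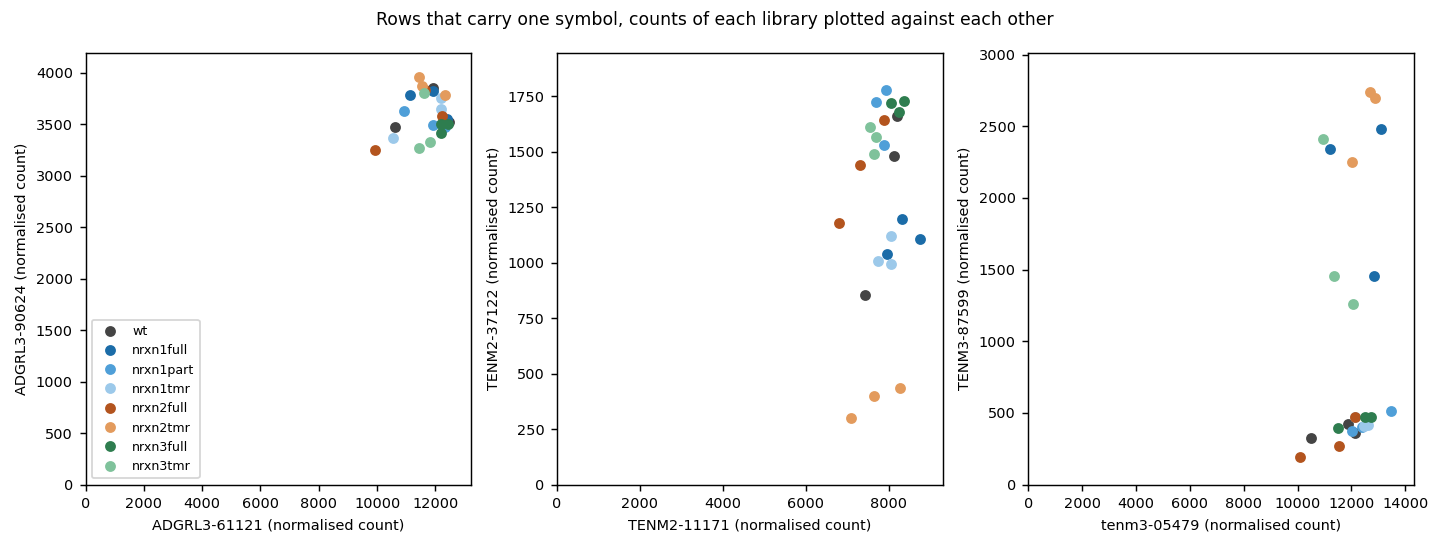
Normalised counts of rows that carry 1 symbol, plotted against each other, 1 point per library, coloured by genotype, both axes from 0. The ADGRL3 rows form 1 cloud; in the TENM2 panel nrxn2tmr lies at 300.4 to 433.7 on the y axis, and in the TENM3 panel 3 lines lie at 1259 to 2743, with no such separation on the x axes.

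TENM3-87599 was the row that rose, and it had the widest range of the 10, 14.04-fold between the lowest and the highest library. In wt it was at 425, 322 and 358 normalised counts. The nrxn2tmr libraries were at 2743, 2253 and 2695, a mean of 2563 ± 270 against 368 ± 52.3 in wt. This is a 6.96-fold rise (log2 2.80, SE 0.29, 95% interval 2.18 to 3.42, adjusted p = 7.7e-06).

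In nrxn1full, TENM3-87599 was at 2339, 2479 and 1453, all above wt. The rise was 5.67-fold (log2 2.50, SE 0.29, adjusted p = 2.8e-05). The nrxn3tmr libraries were at 1259, 2411 and 1457, with a 4.64-fold rise (log2 2.21, SE 0.29, adjusted p = 0.00011).

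The other 4 lines lay near wt. TENM3-87599 was at 370, 514 and 399 in nrxn1part, at 408, 415 and 470 in nrxn1tmr, at 475, 267 and 195 in nrxn2full and at 473, 473 and 393 in nrxn3full. In the order of the 8 means, the 3 high lines overlapped with their neighbours in that order, and a gap separated nrxn3tmr (1709 ± 616) from nrxn3full (446 ± 46.2).

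The full and the tmr deletion were also set against each other directly for this row. For nrxn2 the full deletion was lower than tmr, at -3.04 on the log2 scale (SE 0.30, adjusted p = 2.7e-06). For nrxn3 it was also lower, at -1.94 (SE 0.29, adjusted p = 0.00038), with 1 row called against 4.77%.

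The partner row tenm3-05479 had means from 11255 in nrxn2full to 12633 in nrxn1part and was called in none of the 10 comparisons with edgeR or with DESeq2, with no unadjusted p under 0.05. TENM3-87599 made up 3.096% ± 0.31 of the reads of both in wt, 14.4% ± 3.77 in nrxn1full, 16.9% ± 1.03 in nrxn2tmr and 12.96% ± 4.51 in nrxn3tmr. In these 3 lines the partner's means were 12380, 12540 and 11448, beside 11510 ± 878 in wt. Summed, the rows stayed called in nrxn1full (log2 0.28, adjusted p = 0.024) and nrxn2tmr (0.35, adjusted p = 0.0065), and not in nrxn3tmr (0.15, adjusted p = 0.27).

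Because tenm3 is a gene of the visual system, retina markers are given beside this row. Their sums were 5024 to 13482 in nrxn1full, 686.8 to 11343 in nrxn2tmr and 494.1 to 25268 in nrxn3tmr. All but one of these libraries lay below the lowest wt library, at 15239. The low lines were at 6385 to 11025 (nrxn1part), 9757 to 45685 (nrxn1tmr), 441.1 to 18127 (nrxn2full) and 580.0 to 12214 (nrxn3full). In each low line the median library also lay below 15239. The part of the retina markers in the result was not tested.

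**Figure D3:**
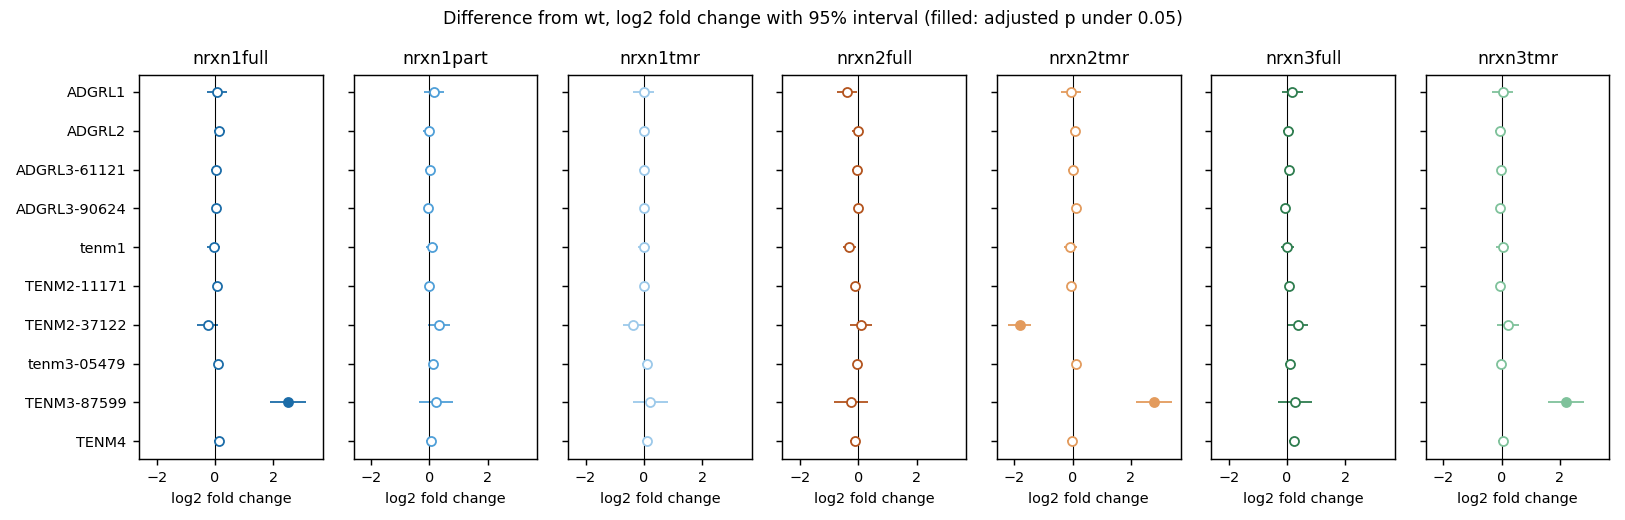
Log2 fold change against wt (x axis) with its 95% interval for the 10 rows (y axis) in the 7 lines; filled points have an adjusted p under 0.05. The 4 filled points are TENM3-87599 in nrxn1full, nrxn2tmr and nrxn3tmr and TENM2-37122 in nrxn2tmr.

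As a group, the rows leaned down in nrxn2full, where 9 of 10 log2 fold changes were negative with a median of -0.08. In nrxn2full replicate 1 they lay on both sides of the wt mean, from -0.09 for tenm1 to 0.37 for TENM3-87599 on the log2 scale. Of the 8 genotypes, this line had the highest astroglial sums, whose part in the lean was not tested. The rows leaned up in nrxn3full, where 9 of 10 were positive with a median of 0.08. The medians of the other 5 lines lay between -0.0047 and 0.07, and those of all tested rows between -0.01 and 0.00 in the 7 lines. With the genotype means subtracted, 44 of 45 pairs of rows had a positive correlation of log2 normalised counts over the 24 libraries, with a median r of 0.51. The highest was 0.78 between ADGRL1 and TENM2-11171, and the lowest -0.25 between ADGRL2 and ADGRL3-90624. Without that subtraction the median r was 0.27, from -0.52 (TENM2-37122 and TENM3-87599) to 0.84 (ADGRL1 and tenm1). The share of positive pairs among other rows was not taken. These libraries share their depth scaling and tissue, so the values are a description.

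Rows whose levels followed those of the members over the 24 libraries were taken from 15604 candidates. ADGRL1 was nearest to KCNA4, a voltage-gated potassium channel (r = 0.96), to fbxo41 (0.96) and to slc4a3, an anion exchanger (0.94). tenm1 was nearest to rapgef5a (0.91), IKZF4 (0.91) and FGF12 (0.88), and TENM2-11171 to PLXNA1, a semaphorin receptor (0.92), MGAT3 (0.87) and DMXL2 (0.87). ADGRL2 was nearest to OPN3 (0.75), MAGI1 (0.75) and DSCAM (0.74), ADGRL3-61121 to PCDH8 (0.81), bcl11ba (0.81) and rims2b (0.79), and ADGRL3-90624 to rorab (0.76), si:ch73-362m14.2 (0.76) and LRRTM4 (0.74). For tenm3-05479 these included SEMA5B (0.85) and phactr2 (0.84), and for TENM4 csmd1a (0.87), THSD7A (0.86) and camta1 (0.86).

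TENM3-87599 was nearest to RNF130, an E3 ubiquitin ligase (r = 0.89), RNF213 (0.88) and cnstb (0.86). RNF130 was at 731 ± 42.5 normalised counts in wt and at 1632 ± 123.5 in nrxn1full, 1737 ± 32.6 in nrxn2tmr and 1383 ± 374 in nrxn3tmr. It was called higher in these 3 lines and, unlike TENM3-87599, also in nrxn1tmr (1177 ± 109, adjusted p = 0.0048). RNF130 was picked by its r over the same libraries, so higher values in the 3 lines follow from that choice.

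TENM2-37122 was nearest to PDLIM3, a Z-disc protein of muscle (r = 0.95), ASAH1, acid ceramidase (0.93), and PDGFRL (0.92). In nrxn2tmr these rows were nearly silent. They were picked by likeness to a row that fell in nrxn2tmr, so low values there follow from that choice. PDLIM3 had 0 reads over the 3 nrxn2tmr libraries and 356 over those of wt, at least 128-fold lower when the floor is set at 3 counts over the group. This ASAH1 row (ENSDARG00000037091) had 1 read against 694, and PDGFRL 2 against 197.

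Genes with the symbols of these rows, matched exactly or after the paralog letter was dropped, lie near a teneurin gene. In the GRCz12tu assembly, used here for gene order only since the counts were made on GRCz11, pdlim3b, asah1a and pdgfrl lie within 20 protein-coding genes of tenm2a on chromosome 14. Which TENM2 row is tenm2a is not given by the files. Rows of genes up to 20 places to either side of tenm2a were therefore examined, a choice made after values were seen, with symbols matched exactly or after the paralog letter was dropped. Of 37 such rows tested, 14 were called in nrxn2tmr and all 14 were lower, against 8.48% of tested rows. PDLIM3, ASAH1 and PDGFRL, which prompted this look, are among the 14, so the count is a description and not a test of the place. Where the letter was dropped, 2 rows can stand at 1 gene's place, as for SORBS2, FAT1, ASAH1 and MICU3, and the files do not say which row belongs there; both MICU3 rows are among the 14. The other row of each of SORBS2, FAT1 and ASAH1 was not called, with log2 fold changes of 0.45, 0.10 and -0.29. With exact symbols alone, 6 of 21 were called. In the other 6 lines 0 to 2 of the 37 were called. Other rows like TENM2-37122, not among the 37, were also nearly silent in nrxn2tmr. They too were picked by likeness over the same libraries, so low values in nrxn2tmr follow from that choice. From wt to nrxn2tmr, si:ch73-119p20.1 went from 11476 ± 3986 to 14.9 ± 5.76 normalised counts. GTPBP2 went from 885 ± 394 to 3.99 ± 1.09, and TP53BP2 from 765 ± 266 to 1.54 ± 1.36.

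All 14 matched genes on one side of tenm2a, where 19 rows were tested, and of the 18 on the other side 0 were called with edgeR or DESeq2, with 3 at an unadjusted p under 0.05. Between the nrxn2 lines, 16 of the 19 were called, against 11.9% of all tested rows. Beside PDLIM3, ASAH1 and PDGFRL, MTMR7 had 4 reads against 1238 in wt, and mtus1a, a microtubule-associated protein gene, 38 against 328 (log2 fold change -3.22, adjusted p = 2.1e-06). Farther along, CNOT7, a subunit of the CCR4-NOT deadenylase, was at 22.8 ± 1.87 against 54.0 ± 6.94 normalised counts (-1.24, adjusted p = 0.0027). The neurexins deleted in nrxn2tmr lie on chromosomes 21 (nrxn2a) and 7 (nrxn2b) of that assembly. The gene tenm2b also lies on chromosome 21. The place of the TENM2 row that fell is not known, so whether it shares a chromosome with nrxn2a was not tested. Rows around the other members and tenm2b were also looked at. Of 33 around adgrl3.1, 6 were called in nrxn1full (7.44% of tested rows) and 4 in nrxn1tmr (4.54%), all higher than wt. In nrxn2full (9.65%), 5 of 29 were called around adgrl1a and 5 of 26 around adgrl2a. The remaining counts were 0 to 4. Around the gene tenm3, on chromosome 1, 0 or 1 of 39 rows was called in each line. The place of the TENM3 row that rose is not known, so whether these rows lie around it was not tested.

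**Figure D4:**
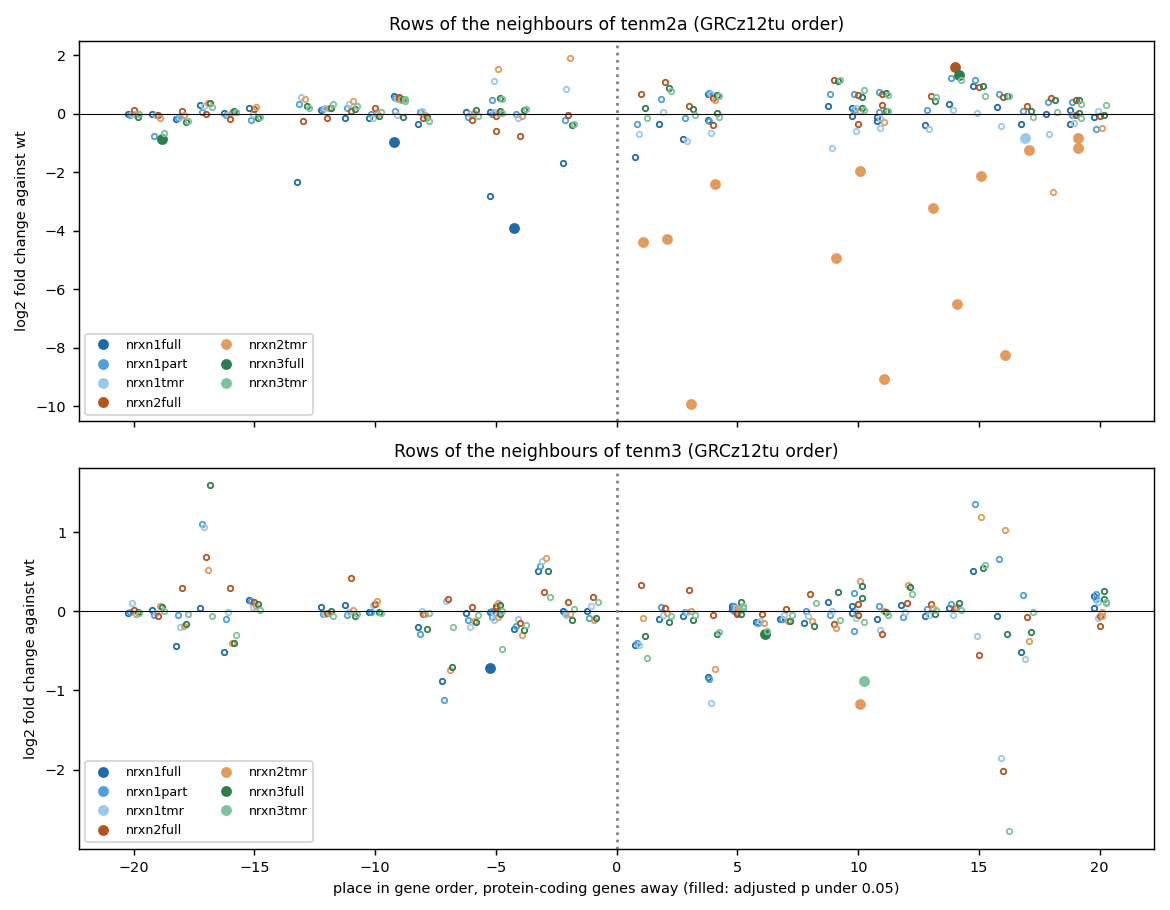
Log2 fold change against wt (y axis) of rows matched to the genes up to 20 places before and after tenm2a (top) and tenm3 (bottom) in gene order (x axis), coloured by line; filled points have an adjusted p under 0.05. In the top panel 14 filled nrxn2tmr points lie below 0, all at places after tenm2a; rows of 1 symbol share a place.

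Among known partners of latrophilins and teneurins, 20 rows of 26 listed genes were tested. In nrxn2tmr 3 were called, 1 higher and 2 lower, against 8.48% of all tested rows. FLRT2, a ligand of latrophilins, rose from 1203 ± 133 in wt to 1683 ± 55.1 (log2 0.48, adjusted p = 0.011), and shank3b, which encodes a postsynaptic scaffold that binds the tail of latrophilins, fell from 1493 ± 162 to 711 ± 53.9 (-1.07, adjusted p = 0.0043). SORBS2 (ENSDARG00000061603), an adaptor of the actin cytoskeleton, fell from 493 ± 185 to 92.1 ± 30.8 (-2.42, adjusted p = 0.0024). It is 1 of the 14 rows matched by symbol to genes near tenm2a. The other SORBS2 row (ENSDARG00000003046) was at 344 ± 48.2 against 251 ± 101 in wt and was not called (0.45, adjusted p = 0.53). In each of the other 6 lines edgeR called 0 of the 20, where 4.54% to 9.65% of all tested rows were called, with 0 to 4 at an unadjusted p under 0.05 and 0 to 2 called by DESeq2, and the list's median lay between -0.13 and 0.11.

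Other family members were few. ADGRL4, a latrophilin-related receptor of endothelium, ran from 430 to 604 normalised counts as genotype means and was called in none of the 10 comparisons with edgeR or DESeq2, with 0 at an unadjusted p under 0.05. The row adgrl2b.1 had 637 reads over the 24 libraries, and the row named tenm2b was listed at 0 in all 24.

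Of 20 rows of other adhesion G protein-coupled receptors, 3 were called in nrxn1part (8.69% of all tested rows), 1 in nrxn2full (9.65%) and 2 in nrxn3tmr (7.32%), so the counts in nrxn2full and nrxn3tmr were near the background. adgra1a rose in these 3 lines, to 178 ± 19.2, 128 ± 20.1 and 177 ± 11.1 from 72.2 ± 3.55 in wt, and celsr1b, of the planar cell polarity pathway, fell in nrxn1part to 538 ± 28.4 from 989 ± 158 (-0.88, adjusted p = 0.00081). The third call in nrxn1part was adgrg2a (-1.07, adjusted p = 0.041), and adgrg4b was at 888 ± 744 in nrxn3tmr against 0.339 ± 0.587 in wt.

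Among 20 rows of other neurexin ligands, 1 or 2 were called in each of 6 lines, where 4.54% to 9.65% of all tested rows were called. These counts were near the background. CBLN4, a secreted protein that bridges neurexins to postsynaptic receptors, was called lower in 6 of the 7 lines, at 210 to 237 normalised counts against 480 ± 125 in wt. The exception was nrxn3full, at 431 ± 84.8. The 6 comparisons share the same 3 wt libraries, and apart from nlgn2b in nrxn3tmr no other row of this list was called in them. The neuroligin row nlgn2b was at 1.42 ± 1.67 in nrxn3tmr against 99.0 ± 30.6 in wt (adjusted p = 0.013).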

How the data were processed

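Poly(A) RNA of whole brains was sequenced as stranded libraries. The authors used Trimmomatic 0.39 for trimming, FastQC 0.11.9 and MultiQC 1.9 for quality control and STAR 2.7.11b for alignment to GRCz11, and deposited unscaled counts per gene. Which of STAR's strand columns was kept is not stated, so genes that overlap on opposite strands are uncertain, and counts add up all isoforms of a gene. For the present text, DESeq2 1.42.0 size factors (0.852 to 1.20) scaled the counts, and rows that reached 10 counts in 3 or more libraries were fitted with edgeR 4.0.16 in R 4.3.3, in 1 robust quasi-likelihood fit over the 24 libraries with 1 coefficient per genotype. Comparisons were each line with wt, full with tmr deletions of a neurexin, and any difference among 8 genotypes. The script was tested on simulated counts. An exact permutation test of 3 against 3 libraries cannot give a p under 0.1 and was not run.

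Groups came from the submitters' labels. The members and gene lists were chosen with earlier results of these data known. Genes named are all members, up to 4 per list by adjusted p where a list member was called, the 3 rows most like each member by Pearson r of log2(normalised count + 1) among named rows whose mean reached 50, and, chosen after their values were seen, rows near tenm2a. Symbols and gene order came from tables of gene names and of the GRCz12tu assembly. Alternatives were TMM factors, the DESeq2 test, no filter, at least 50 counts, the replicate number as a block, only the libraries compared and the omission of each library; summing rows of 1 symbol was added after the data were seen. Some results are not reported here. Libraries of 1 genotype always differed beyond sampling noise (chi-square per row 20.9 to 52.1).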

Additional observations from a re-analysis of the deposited data

Results flagged for a closer look

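Full and tmr deletions of nrxn2 and of nrxn3 differed by test at 3 values. For TENM3-87599 the log2 fold change of full against tmr was -3.04 for nrxn2 and -1.94 for nrxn3, and for TENM2-37122 it was 1.91 for nrxn2 (edgeR's quasi-likelihood test, adjusted p = 2.7e-06, 0.00038 and 1.9e-06). In each of these comparisons the 3 libraries of one line lay on one side of the 3 of the other. All 3 stayed called in each of the 12 alternative fits that use the 2 rows apart. With the rows of 1 symbol summed, the same edgeR test no longer called the TENM2 difference for nrxn2 (0.12, adjusted p = 0.27). Nor did it call the TENM3 difference for nrxn3 (-0.05, adjusted p = 0.84). The summed TENM3 difference for nrxn2 stayed called (-0.38, adjusted p = 0.003). In each sum the other row supplied most reads, so a change in the smaller row moves the sum little. TENM2-37122 made up 16.1% of both rows in nrxn2full and 4.67% in nrxn2tmr. TENM3-87599 made up 3.51% in nrxn3full and 12.96% in nrxn3tmr.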

How the results depend on the processing

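The 7 pairwise calls reported, all of TENM3-87599 and TENM2-37122, kept their direction and their call in each of 12 alternative fits of separate rows, with adjusted p up to 0.017. TENM2-37122 in nrxn2tmr ranged from -2.06 to -1.63, and TENM3-87599 from 2.36 to 2.71 in nrxn1full, 2.71 to 2.91 in nrxn2tmr and 1.88 to 2.39 in nrxn3tmr. Over 1260 single values and alternatives, 14 were called only under the alternative, 5 were lost, all 5 when rows of 1 symbol were summed, and 0 turned direction while called. The number of members called became 1 in nrxn2full (0 as reported) with DESeq2 and 1 in nrxn3full (0 as reported) with DESeq2 and with the replicate block. Of 20 same-numbered pairs of libraries, 0 had a correlation of deviations over 0.1 (-0.09 to 0.06). Low correlations cannot show that the samples were unpaired, so whether replicate numbers pair them was left undecided. The replicate block left 1 call in nrxn1full, 2 in nrxn2tmr and 1 in nrxn3tmr. With each library left out in turn, members called ranged from 1 to 2 in nrxn1full, 0 to 1 in nrxn1tmr and nrxn3full, 0 to 2 in nrxn2full, 2 to 4 between the nrxn2 lines and 2 to 5 in the test of any difference. The 4 between the nrxn2 lines and the 5 came without nrxn2full replicate 1 and added ADGRL1 and tenm1. The causes were not tested.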

Other observations

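In nrxn2tmr, 12.1% of 511 tested rows with a unique symbol on chromosome 14 of GRCz12tu were called, 37 of 62 of them lower than wt, and the other chromosomes ranged from 2.85% to 13.9%. In the other 6 lines chromosome 14 had 2.74% to 7.83% of its rows called. RNF130 and CTSO, the first and the fifth of the rows nearest in level to TENM3-87599, carry the symbols of genes that are direct neighbours on chromosome 14. The gene tenm3 lies on chromosome 1, but the place of the row TENM3-87599 is not known. CTSO was at 0 normalised counts in wt and nrxn2full, at 0.309 in nrxn1part and at 0.345 in nrxn3full. It was at 286 ± 98.4 in nrxn1full, 147 ± 13.8 in nrxn1tmr, 407 ± 66.7 in nrxn2tmr and 250 ± 116 in nrxn3tmr. These values were looked at after the members' results were known. Both rows were picked by likeness over the same libraries, so high values in the lines where TENM3-87599 rose follow from that choice.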
